A study of Mus musculus with 24 samples.

Results

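The regions described here are the accessible chromatin regions that lie between genes but close to one. They are the regions of the ATAC-seq count table on chromosomes 1 to 19 that overlap no protein-coding gene body and whose nearest protein-coding gene end is more than 1 kb and at most 50 kb away, by the RefSeq gene table for mouse GRCm38 (mm10). There are 1701 such regions, 12.6% of the 13549 regions on these chromosomes and part of 13910 regions in all. ATAC-seq uses the transposase Tn5 to cut and tag open DNA, so a count is a measure of how often a region was cut. The series concerns NF-κB in blood stem cells and in the marrow around them during ageing. Wild-type donor marrow carrying CD45.1 was transplanted into young CD45.2 recipients that were either WT or IκB–. Between 13 and 15 weeks later the donor cells were sorted from femur and tibia marrow as 4 subsets, long-term haematopoietic stem cells (HSC) and the multipotent progenitors MPP2, MPP3 and MPP4. The 8 groups, WT and IκB– recipients for each subset, have 3 replicates each. The sorted cells are WT for donor genotype in all 8 groups, so the recipients differ and the donor cells do not. All 4 gates were lineage-negative, Sca1+ and cKitHi; the labels give the HSC gate as Flt3–, CD150– and CD48–, MPP2 as Flt3–, CD150+ and CD48+, MPP3 as Flt3–, CD150– and CD48+, and MPP4 as Flt3+. Long-term HSC are usually sorted as CD150+ and CD48–, from which the gate in the labels differs; the sources used here do not explain this, and values for HSC refer to the gate as labelled. The labels do not describe the genetic change behind IκB– and do not say whether replicates came from separate animals, so the p-values measure the spread between these samples, which may be partly technical. Each sample held 500 to 1500 cells.

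Open regions away from gene starts include enhancers, silencers, insulator sites and the promoters of non-coding genes. An enhancer binds transcription factors and can act on a gene over a distance, and in blood progenitors many lineage decisions are read from such elements. The nearest gene is used below as an address for a region and not as its target. In a pool of sorted cells, more cells with a region open and a region more open in each cell cannot be told apart.

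Of the 1701 regions, 122 overlap 144 of the 32851 promoter windows in the RefSeq table. Among the members called in a comparison of MPP3 or MPP4 with HSC (edgeR quasi-likelihood test, adjusted p under 0.05), 3 overlap such a window. The windows of 2 of them are shown because they give underlying bases of members changed between stem cell and progenitor. Each is 300 bases, 5′ to 3′ on the strand of the non-coding gene, from RefSeq GRCm38.p6, with the bases inside the accessible region in capitals. The window of Gm39087 is chr7:126621519-126621818 on the plus strand and gives 156 bases to the region nearest Nupr1, which was lower in MPP3 than in HSC. The window of Gm46943 is chr5:147917803-147918102 on the plus strand and gives 78 bases to the region nearest Slc46a3, also lower in MPP3.
Gm39087: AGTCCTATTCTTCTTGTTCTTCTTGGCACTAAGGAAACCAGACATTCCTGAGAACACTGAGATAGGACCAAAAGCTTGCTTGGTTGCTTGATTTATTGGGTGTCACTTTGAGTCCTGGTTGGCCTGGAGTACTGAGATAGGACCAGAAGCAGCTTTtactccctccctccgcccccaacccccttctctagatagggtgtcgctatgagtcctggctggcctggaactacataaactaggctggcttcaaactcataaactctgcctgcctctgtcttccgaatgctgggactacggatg
Gm46943: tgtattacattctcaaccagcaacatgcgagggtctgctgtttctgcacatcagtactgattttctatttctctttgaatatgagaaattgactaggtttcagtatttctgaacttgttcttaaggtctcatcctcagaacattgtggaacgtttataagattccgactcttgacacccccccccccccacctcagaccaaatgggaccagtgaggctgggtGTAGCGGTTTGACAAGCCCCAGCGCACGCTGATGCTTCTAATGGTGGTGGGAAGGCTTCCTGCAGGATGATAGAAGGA
Matches to TTNNGCAA, a core motif of C/EBP factors searched on both strands as were the others, were found in 13.9% of the 144 windows that members overlap and in 10.8% of all 32851 windows. GAGGAAGT, a motif of the myeloid and lymphoid factor PU.1, was found in 9.03% of the members' windows and 3.2% of all. TGTGGTT, bound by RUNX factors, was found in 9.03% and 5.27%, and GGANTTTCC, a motif of NF-κB, in 0.694% and 1.25%. Of the 12 motifs searched, 5 had a higher share in the members' windows than in all windows and 7 a lower one. The others with a higher share were AGGNGGC of CTCF (36.1% and 29.4%) and CCGGAAGT of ETS factors (5.56% and 3.89%). Beside NF-κB, those with a lower share were CAGCTG, an E-box (13.9% and 16.3%), TGANTCA of AP-1 (4.86% and 7.81%), ACANNNTGT of the glucocorticoid receptor (6.25% and 6.85%), AGATAAG of GATA factors (2.08% and 3.04%), GGGTGTGGC of KLF factors (0.694% and 1.35%) and TGATTNATG of HOX and MEIS factors (0 and 0.874%). The PU.1 and RUNX shares of the members' windows rest on 13 windows each, and those of NF-κB and KLF on 1 each. The search covered whole windows, so a match may lie outside the member. All 32851 windows were counted whether or not they lie in an accessible region. No test was run on these shares, and a match of letters is not a bound site.

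The members were narrower and less open than regions at gene ends. Their median width was 284 bp (112 to 1503), against 404 bp for regions within 1 kb of a gene end, 292 bp for regions inside genes and 283 bp for regions over 50 kb from any gene. Mean openness over the libraries had a median of 34.5 CPM (counts per 1e+06 TMM-scaled library counts), with quartiles of 25.4 and 48.6, against 66.8 CPM at gene ends, 36.6 CPM for regions inside genes and 32.0 CPM for regions over 50 kb from any gene. Per kb of region the medians were 123, 161, 129 and 118 CPM in the same order, so the gap to gene ends was smaller per kb than per region. The most open member was the region nearest Rpusd4, a pseudouridine synthase gene (chr9:35305086-35305657), at a mean of 629 CPM over its whole width and from 180 to 1704 CPM, with a median of 430.3 CPM, over the 23 replicates described below. Next came the region nearest Ly6c2, which encodes a surface protein of monocytes (chr15:75086178-75087100), at a mean of 498 CPM and a median of 289 CPM, from 83.2 to 1634 CPM. The region nearest Zfp958 (chr8:4677394-4678896) had a mean of 462 CPM and a median of 455 CPM, from 377 to 569.8 CPM. The order of these 3 is by their means and does not hold for their medians, of which that of the Zfp958 region was the highest. The least open member had 6.95 CPM.

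The nearest gene end was 1001 to 49857 bp away, with a median of 12271 bp. At the near edge of the rule, the region nearest Entpd6 lay 1001 bp away at 20.5 CPM and was taken, while the region nearest Nsl1 lay 1000 bp away at 47.0 CPM and was not. At the far edge, the region nearest D16Ertd472e lay 49857 bp away at 37.4 CPM and was taken, while a chromosome 19 region 50014 bp from a gene, at 16.0 CPM, was not. The members had 1442 different nearest genes; 1231 of these had 1 member, 211 had 2 or more and 11 had at least 4. Bcas1 had 5, and Ptma, Azin1, Cdh26 and Csf2ra, the receptor subunit for GM-CSF, had 4 each. Where the strand of the nearest gene was known (1336 members), 665 lay upstream and 671 downstream. A non-coding gene was overlapped by 455 members, a long non-coding RNA (lncRNA) gene by 404, a pseudogene by 32 and a tRNA gene by 14, while 1246 overlapped no annotated gene.

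Total counts ran from 121599 to 963699 per library, of which 8614 to 64773 lay in members, and the median member had 4 to 30 counts. The filter on low counts kept 1585 members and left 116 untested, whose mean counts did not pass 7.78. WT MPP3 replicates 2 and 3 did not differ beyond sampling noise and were counted as 1 replicate, which gives 23 replicates and n = 2 for WT MPP3. IκB– HSC replicate 3 and WT MPP4 replicate 1 stood apart from the other replicates of their groups, so the counts of called members are also given without these 2 libraries, an alternative chosen after seeing the data. Where a comparison had 0 called members (recipients within HSC, within MPP2, the interaction, MPP2 against HSC and MPP4 against MPP3), it had 0 without them too. Gene ends took 61.7 to 74.1% and members 6.46 to 9.31% of the autosomal counts. No difference between recipients in the members' share passed its test. IκB– minus WT, averaged over the 4 subsets, was -0.0364 percentage points (two-sided exact permutation p = 0.901), and -0.748 points in MPP3 (exact p = 0.2, where 0.1 is the smallest possible). Progenitors minus HSC gave 0.212 points (MPP2), -0.0143 points (MPP3) and 0.370 points (MPP4) (exact permutation p of 0.7, 0.97 and 0.495). As a share of the counts lying over 1 kb from gene ends, members took 0.800 points more in MPP3 than in HSC, with an unadjusted exact permutation p of 0.01.

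The first question is what a changed recipient does to donor cells across all subsets. The fit took the replicates of the 4 subsets as independent. The labels do not say whether subsets with the same replicate number came from the same recipients. If they did, the sample sizes and p-values of the mean recipient effect count the same recipient up to 4 times. Averaged over the 4 subsets, 55 members were called between recipients, 16 higher and 39 lower in IκB– recipients. They make 3.47% of the 1585 tested, against 1.73% of all 13325 regions tested; the higher calls were 0.608% and the lower 1.13% of all regions. Among the other classes, 0.539% of gene-end regions, 2.83% of regions inside genes and 4.86% of regions over 50 kb from a gene were called, a difference between classes that was not tested. The 55 had 55 different nearest genes, a median distance of 8614 bp, and absolute log2 fold changes from 0.50 to 2.26 with a median of 1.12; 34 changed at least 2-fold. In 52 of 55 the sign was the same in all 4 subsets. The count moved with the settings and with single libraries. With all 24 libraries kept apart and a block for the replicate number, it was 101 (40 higher, 61 lower). It was 2 (both lower) when only regions with a mean of at least 20 counts were tested, which left 266 members, and 85 (30 higher, 55 lower) when the fit took up the share of counts at gene ends in each library. It was 47 (17 higher, 30 lower) without the 2 libraries that stood apart, 18 without the merged WT MPP3 replicates 2 and 3 and 98 without IκB– HSC replicate 1. It was 20 without IκB– MPP4 replicate 3, 25 without WT MPP4 replicate 2, 27 without replicate 2 of WT HSC or of WT MPP2, 33 without IκB– MPP3 replicate 3 and 34 without IκB– MPP2 replicate 2. Without each replicate in turn, 15 of the 55 stayed called in all 23 fits.

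**Figure D1:**
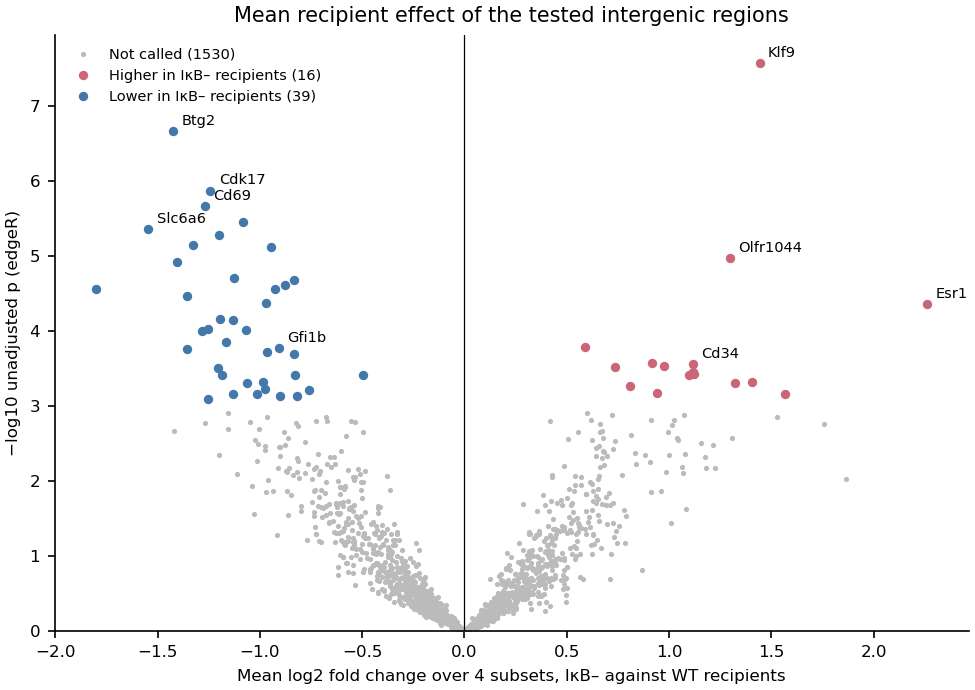
Mean recipient effect of the 1585 tested members, IκB– minus WT recipients averaged over 4 subsets: log2 fold change on the x axis, minus log10 of the unadjusted p on the y axis, 1 point per member. The 16 members called higher and 39 called lower are coloured, and the members not called are grey; Klf9 is the highest point on the right and Btg2 the highest on the left.

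The region nearest Klf9 was the member with the smallest p. Klf9 encodes a Krüppel-like transcription factor whose gene is a well-known target of glucocorticoids. The region, chr19:23134882-23135202, lies 6024 bp upstream of Klf9 inside the lncRNA gene 2410080I02Rik. In IκB– recipients it had 47.3 CPM in the lowest, 85.4 in the median and 125 in the highest of 12 replicates, and in WT recipients 14.3, 27.5 and 47.2 CPM in 11. The 2 sets did not overlap, which held for this member alone and for 0.0075% of all regions tested. The means were 79.9 ± 23.4 CPM (SD, n = 12) and 28.1 ± 9.64 CPM (SD, n = 11), a log2 fold change of 1.44 ± 0.21 (SE; adjusted p = 0.000362), and the adjusted p reached at most 0.00324 without any 1 replicate. The subset means in WT and IκB– recipients were 32.3 ± 14.4 and 81.5 ± 18.3 CPM for HSC, 24.6 ± 4.75 and 86.7 ± 38.8 CPM for MPP2, 27.2 ± 1.72 and 78.6 ± 20.3 CPM for MPP3, and 28.0 ± 13.7 and 72.9 ± 24.96 CPM for MPP4 (SD, n = 3, but 2 for WT MPP3). The subset means thus ran from 24.6 to 32.3 CPM in WT and from 72.9 to 86.7 CPM in IκB– recipients, and the IκB– mean was higher in all 4 subsets. A neighbouring member near Klf9, chr19:23135249-23135664, had 51.4 ± 22.9 against 28.2 ± 12.1 CPM and did not pass the test (0.82 ± 0.25, adjusted p = 0.0858).

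**Figure D2:**
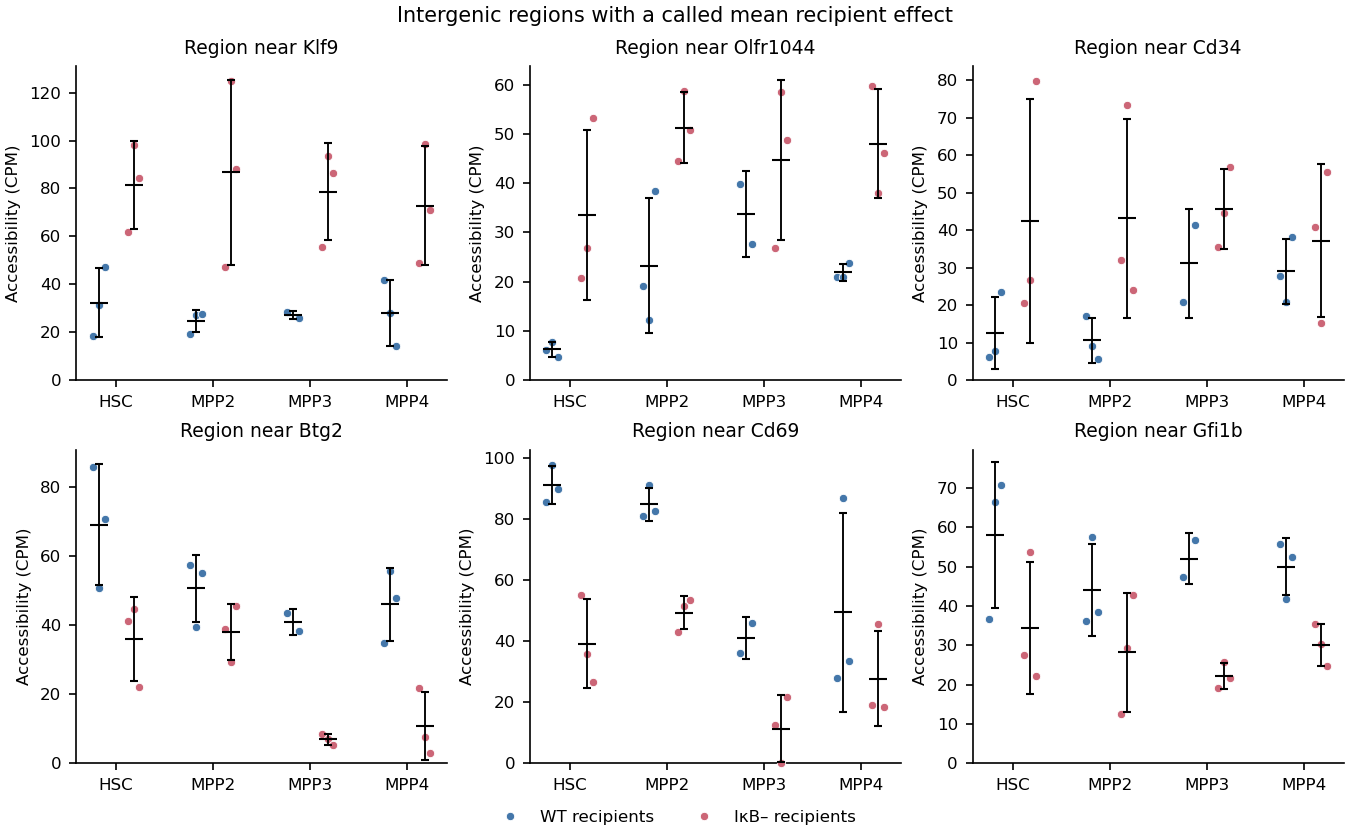
Openness in CPM of 6 members by subset, WT and IκB– recipients side by side; points are replicates and bars are mean ± SD (n = 3, but 2 for WT MPP3). The Klf9, Olfr1044 and Cd34 regions have higher means in IκB– recipients and the Btg2, Cd69 and Gfi1b regions lower ones, and only the Klf9 region has no overlap between recipient types over all replicates.

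The region nearest Olfr1044, an olfactory receptor gene (chr2:86175468-86175717, 3653 bp upstream), averaged 44.4 ± 13.5 CPM over the 12 IκB– replicates and 20.1 ± 12.02 CPM over the 11 WT replicates (SD), a log2 fold change of 1.30 ± 0.26 (adjusted p = 0.00463). The region nearest Esr1, which encodes oestrogen receptor alpha (chr10:4601695-4602006, 9983 bp upstream), had 23.1 ± 15.1 and 4.98 ± 6.49 CPM, 2.26 ± 0.50 (adjusted p = 0.0111), with only 18 counts in all WT replicates together. Among the members named as higher, the Klf9 and Olfr1044 regions kept their call in all 23 fits that left out 1 replicate. The Esr1 region kept it in the 22 of these fits in which it passed the filter on low counts. A region nearest Cd34, a surface sialomucin that marks progenitors (chr1:194995258-194995517, 33966 bp downstream, inside the lncRNA gene Gm32250), had 42.1 ± 20.7 and 19.8 ± 12.4 CPM, 1.12 ± 0.28 (adjusted p = 0.0321). Its values overlapped, from 15.2 to 79.9 CPM in IκB– and 5.50 to 41.3 CPM in WT recipients. The Cd34 call held in 14 of the 23 fits and was lost without IκB– HSC replicate 3 (adjusted p = 0.144), as it was without both libraries that stood apart.

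The other members named as higher also lost their calls in some fits that left out 1 replicate. The region nearest Acss1, a mitochondrial acetyl-CoA synthetase gene (chr2:150673850-150674413), ran from 17.9 to 280.2 CPM in IκB– and from 14.2 to 132 CPM in WT recipients (0.91 ± 0.23, adjusted p = 0.0316; 0.25 without IκB– HSC replicate 3). The region nearest Cmtm6, a regulator of the checkpoint ligand PD-L1 (chr9:114752806-114753247), had the smallest change of those named, 111 ± 20.9 against 72.9 ± 16.2 CPM (0.59 ± 0.14, adjusted p = 0.0249; 0.0877 without WT MPP3 replicates 2 and 3). Noct, a circadian phosphatase gene (chr3:51209888-51210330, 1.12 ± 0.28), Med29, a Mediator subunit gene (chr7:28382987-28383308, 0.73 ± 0.19), and Atp1b3, a sodium pump subunit gene (chr9:96399629-96399819, 1.40 ± 0.37), had adjusted p of 0.0349, 0.0321 and 0.0393. Basp1 (chr15:25354796-25355105, 0.97 ± 0.25), Ccm2l (chr2:153084172-153084522, 1.12 ± 0.29) and Pdzd8 (chr19:59350548-59350822, 1.10 ± 0.29) completed the 12 named. Of these 6 members, none kept its call in more than 15 of 23 fits, and Basp1, Med29, Noct and Pdzd8 were not called without both libraries that stood apart, nor were Acss1 and Cmtm6.

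Members called lower in IκB– recipients outnumbered those called higher. The region 1398 bp downstream of Btg2, an antiproliferative gene of the early response class (chr1:134073183-134073467), had 3.08, 22.0 and 45.4 CPM as the lowest, median and highest of 12 IκB– replicates and 34.8, 50.8 and 85.6 CPM in the 11 WT replicates. The sets overlapped between 34.8 and 45.4 CPM. The log2 fold change was -1.42 ± 0.23 (adjusted p = 0.000948), and by subset -0.99 (HSC), -0.36 (MPP2), -2.39 (MPP3) and -1.96 (MPP4). A region 32019 bp from Cd69, an early activation lectin of lymphocytes (chr6:129234950-129235305, in the gene 2310001H17Rik), had 31.9 ± 18.0 against 68.8 ± 26.9 CPM (-1.27 ± 0.23, adjusted p = 0.0024). Its effect was -1.27, -0.81, -1.83 and -1.17 in the 4 subsets in the same order. The region nearest Cdk17, a PCTAIRE-type kinase gene (chr10:93143432-93143817), had 38.9 ± 22.2 against 80.2 ± 38.6 CPM (-1.24 ± 0.22, adjusted p = 0.00164). The region nearest Slc6a6, the taurine transporter gene (chr6:91660273-91660488), had the largest log2 change of the 12 named as lower, 15.3 ± 10.6 against 45.0 ± 16.5 CPM (-1.55 ± 0.29, adjusted p = 0.00292).

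The remaining members named as lower had log2 fold changes between -1.41 and -0.83. The region nearest Ropn1l, a sperm flagellum gene (chr15:31417959-31418376), was even across subsets, at -1.19 (HSC), -0.68 (MPP2), -0.90 (MPP3) and -1.001 (MPP4). The region nearest Sncaip, which encodes the synuclein-binding protein synphilin-1 (chr18:52749780-52750095), was uneven, at -0.26, 0.02, -1.88 and -1.22 in that order, and is the only one of the 12 named whose fitted effect was positive in a subset. Rnf125, a ubiquitin ligase gene (chr18:20938617-20938945), Paqr9 (chr9:95554663-95555024), Gm51582 (chr8:81286332-81286709), Brinp2 (chr1:158239797-158240180) and C330018D20Rik (chr18:56977776-56978224) were the nearest genes of 5 more. The region nearest Zdhhc19, a palmitoyltransferase gene (chr16:32509527-32509932), had -0.88 ± 0.19 (adjusted p = 0.00837; 0.0862 without WT MPP3 replicates 2 and 3), and the other 11 named as lower kept their call without each replicate in turn. From the lists of blood genes, the region 9847 bp downstream of Gfi1b, a repressor needed for erythroid and megakaryocyte cells (chr2:28599283-28599603), had 12.5 to 53.6 CPM in IκB– and 36.2 to 70.7 CPM in WT recipients (-0.91 ± 0.22, adjusted p = 0.0253). That call was lost without WT MPP3 replicates 2 and 3 (0.0913), WT MPP2 replicate 2, WT HSC replicate 2, IκB– MPP4 replicate 3 or IκB– MPP2 replicate 1.

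Most end regions of the nearest genes did not pass the test where the member did. Of the 55 called members, 24 had a tested region at an end of their nearest gene, and 2 of these end regions were called, those of Pkd1l2 and Rbm38, where 0.539% of all tested regions within 1 kb of a gene end were called. No test was run on this difference. The end regions had a median log2 fold change of 0.09 for the 11 near members called higher and -0.15 for the 13 near members called lower. At the Klf9 end, 23140771 to 23141311 on chromosome 19, the change was 0.25 ± 0.14 (adjusted p = 0.423) beside 1.44 at the member. At the Btg2 end it was 0.04 ± 0.19 (adjusted p = 0.949) beside -1.42, and at the Cd34 end 0.09 ± 0.17 (adjusted p = 0.864) beside 1.12. The difference between a member and its gene end was not tested.

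**Figure D3:**
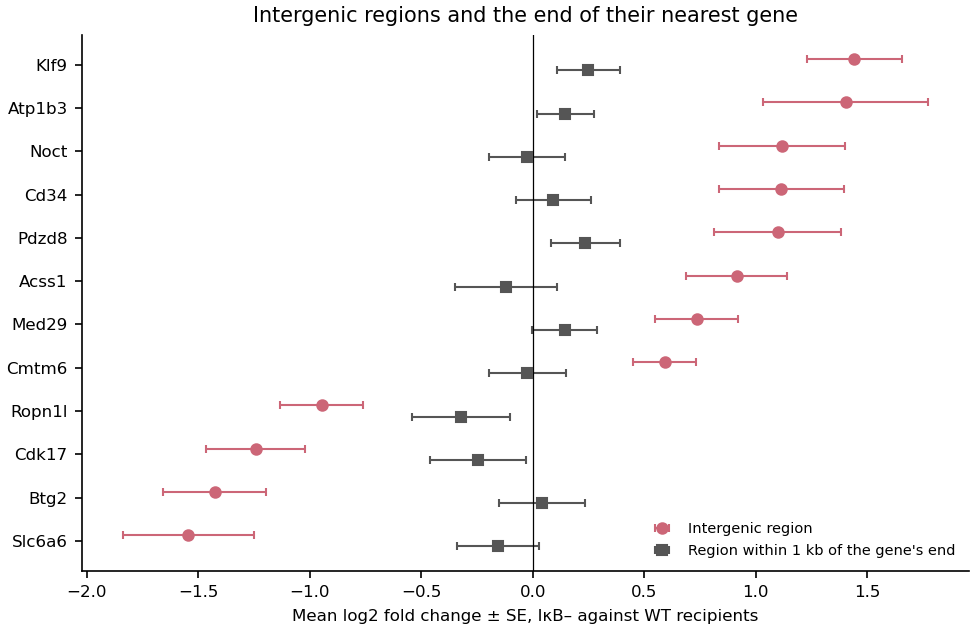
Log2 fold change with its SE for 12 named members and for the accessible region at an end of the same nearest gene, mean recipient effect, IκB– minus WT. Member points lie away from 0 in both directions, while the gene-end points of the same genes lie between -0.32 (Ropn1l) and 0.25 (Klf9).

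The called share differed by position, and this difference was not tested. Members 1 to 5 kb from the gene end were called for the mean recipient effect in 5.16% of cases, those at 5 to 10 kb in 4.22%, at 10 to 25 kb in 2.78% and at 25 to 50 kb in 2.1%. Their median openness was 37.3, 34.7, 33.6 and 33.2 CPM. Of the 622 tested members upstream of their gene 13 were called (2.09%), and of the 624 downstream 27 (4.33%). Of members that overlap a lncRNA gene 8 of 379 were called, of those that overlap a tRNA gene 0 of 12, and of those that overlap no annotated gene 47 of 1157 (4.06%).

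Within single subsets few members passed in the main fit. In MPP3, 5 members were called, all lower in IκB– recipients, where 0.21% of all regions were called (0.203% lower). At an unadjusted p under 0.05 there were 243 members, and 9.52% of all regions. The region near Sncaip had 16.3, 14.1 and 18.9 CPM in IκB– MPP3 replicates 1 to 3 and 60.7 and 61.2 CPM in the WT MPP3 replicates (-1.88 ± 0.35, adjusted p = 0.00858). The region near Lancl2, a LanC-like protein gene (chr6:57745398-57745758), had 7.66, 14.1 and 8.11 CPM against 49.3 and 50.5 CPM (-2.36 ± 0.45, adjusted p = 0.00858). The Btg2 region had 8.61, 7.03 and 5.41 CPM against 43.6 and 38.3 CPM (-2.39 ± 0.47, adjusted p = 0.00995). In each of these the recipient types did not overlap within MPP3, as was the case for 28.2% of all regions tested in this comparison of 3 replicates with 2. The C330018D20Rik region had 11.5, 9.37 and 10.8 CPM against 43.6 and 49.0 CPM (-2.07 ± 0.43, adjusted p = 0.0179), and the Paqr9 region 5.74, 4.69 and 8.11 CPM against 37.9 and 30.6 CPM (-2.43 ± 0.55, adjusted p = 0.0338). All 5 calls were lost without IκB– MPP3 replicate 1, without WT MPP3 replicate 1 or without WT MPP3 replicates 2 and 3, and when MPP3 alone was fitted. The count was 80 with all 24 libraries kept apart and a block for the replicate number, and 20 (1 higher) with no block. It was 41 (1 higher) with limma-voom, 8 (1 higher) once the fit took up each library's gene-end share and 1 at a mean of at least 20 counts. From the 5 of the main fit it rose to 14 without IκB– HSC replicate 1, 31 without IκB– HSC replicate 3 and 8 without IκB– MPP3 replicate 2. It was 40 (2 higher, 38 lower) without both libraries that stood apart. Over all tested members the MPP3 effect had a median of -0.19, beside 0.01 for all regions, and gene ends took 68.9 to 71.9% of autosomal counts in IκB– MPP3 and 67.6 to 67.7% in WT MPP3; the part of that share in the result was not tested. No member was called higher; the Klf9 region had the smallest p of those (1.47 ± 0.39, adjusted p = 0.0813).

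In MPP4, 1 member was called, lower in IκB– recipients, where 0.045% of all regions were called and 0.0375% called lower (7.1% of all regions had an unadjusted p under 0.05). The Zdhhc19 region had 19.04, 15.2 and 21.6 CPM in IκB– MPP4 and 41.7, 83.4 and 129 CPM in WT MPP4 (-2.16 ± 0.44, adjusted p = 0.0499). The call held in 6 of 23 fits without 1 replicate, and the adjusted p was 0.531 without WT MPP4 replicate 3; without both libraries that stood apart 2 members were called. With DESeq2's size factors, total counts, loess offsets, the DESeq2 test, limma-voom, a mean of at least 20 counts or only the groups compared, 0 members were called. The region nearest Spry2, a feedback inhibitor of receptor tyrosine kinase signalling (chr14:105886755-105887252), was 85.7 ± 41.6 against 22.6 ± 10.9 CPM and not called (1.91 ± 0.49, adjusted p = 0.224). In HSC and in MPP2 the edgeR test called 0 members, as did DESeq2 and limma-voom, and 0% of all regions. At an unadjusted p under 0.05 it found 136 members in HSC (6.31% of all regions) and 72 in MPP2 (3.65% of all regions). The smallest p in HSC was at the Ccm2l region (2.32 ± 0.60, adjusted p = 0.642) and at a region near Selenof (-1.79 ± 0.51, adjusted p = 0.642). In MPP2 it was at the Klf9 region (1.68 ± 0.41, adjusted p = 0.85) and at a region near Slc4a8 (-1.62 ± 0.46, adjusted p = 0.999).

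A joint test of whether the recipient effect differed among the 4 subsets called 0 members by edgeR, DESeq2 or limma-voom and 0% of all regions, with 90 members at an unadjusted p under 0.05 (4.05% of all regions). The smallest p was at the Sncaip region (adjusted p = 0.816), then at a region near Metap1 (0.816) and at the Lancl2 region (0.955). The calls in MPP3 and MPP4 are thus not shown to differ from the effects in HSC or MPP2 at the same regions.

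The second question is how the subsets differ, with both recipient types averaged. MPP3 against MPP2 gave the most calls: 252 members were called, 71 higher and 181 lower in MPP3, 15.9% of those tested against 8.14% of all regions (1.88% higher, 6.27% lower). MPP4 against MPP2 gave 124 calls, 60 higher and 64 lower (7.82% against 3.38%, of which 1.44% higher and 1.94% lower), MPP3 against HSC 72, 22 higher and 50 lower (4.54% against 2.57%, of which 0.638% higher and 1.94% lower), and MPP4 against HSC 41, 30 higher and 11 lower (2.59% against 1.27%, of which 0.833% higher and 0.435% lower). MPP2 against HSC gave 0 calls by edgeR, DESeq2 and limma-voom, where 0.03% of all regions were called, with 158 members at an unadjusted p under 0.05 (8.31% of all regions). MPP4 against MPP3 gave 0 by the same tools and 0% of all regions, with 103 unadjusted (4.04%). Gene-end regions were called in 2.72% of cases for MPP3 against MPP2 and in 0.207 to 0.595% for the other 3 pairs with calls. The called members' median absolute log2 fold change lay between 1.39 (MPP3 against MPP2) and 1.82 (MPP3 against HSC). Total counts per replicate ran from 121599 to 255584 in HSC and 146732 to 690277 in MPP2. They ran from 363609 to 963699 in MPP3 and 140166 to 365067 in MPP4. The part of depth in the order of the pairs was not tested.

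**Figure D4:**
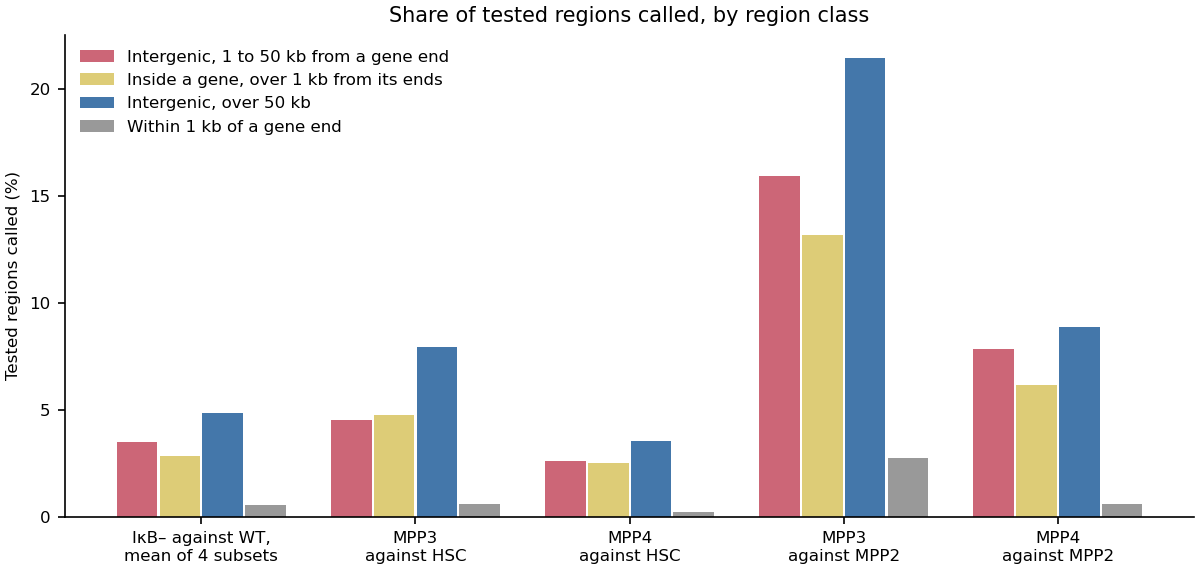
Percent of tested regions called (edgeR quasi-likelihood, adjusted p under 0.05) in 4 classes of region for 5 comparisons, as bars from 0. Members lie above gene-end regions and below regions over 50 kb from a gene in all 5, for example at 15.9% against 2.72% and 21.4% for MPP3 against MPP2.

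These counts moved with the settings and with single libraries. With all 24 libraries kept apart and a block for the replicate number, MPP3 against MPP2 gave 390 and MPP4 against MPP2 216. In that fit MPP3 against HSC gave 157 and MPP4 against HSC 95. Without both libraries that stood apart they were 350 (119 higher, 231 lower), 168 (67 and 101), 161 (36 and 125) and 58, in which the split of MPP4 against HSC turned to 20 higher and 38 lower. MPP3 against MPP2 gave 149 without IκB– MPP2 replicate 1, 152 without WT MPP2 replicate 1 and 156 without WT MPP3 replicates 2 and 3. MPP3 against HSC gave 148 without IκB– HSC replicate 3, 45 without WT HSC replicate 2 and 46 without WT MPP3 replicate 1, and 38 higher with 40 lower when scaled by total counts, which moved the median of all regions to 0.12. MPP4 against HSC gave 18 and 19 without IκB– MPP4 replicate 3 or 1, 22 and 24 without WT HSC replicate 2 or 3, and 26 without WT MPP4 replicate 1, and 28 higher with 21 lower under loess scaling. MPP4 against MPP2 gave 187 without IκB– HSC replicate 3, 54 without IκB– MPP4 replicate 3, 71 and 73 without WT MPP2 replicate 2 or 1, 76 without IκB– MPP2 replicate 1 and 82 without WT MPP4 replicate 2.

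The region nearest Esf1, a nucleolar ribosome biogenesis gene (chr2:140097108-140097415, 22466 bp downstream), had the smallest p of the members called lower in all 4 pairs with calls. It had 72.7 ± 22.0 CPM for HSC (SD, n = 6), 88.2 ± 13.9 CPM for MPP2 (n = 6), 11.3 ± 9.25 CPM for MPP3 (n = 5) and 17.3 ± 15.4 CPM for MPP4 (n = 6). The lowest HSC or MPP2 replicate, at 47.2 CPM, was above the highest MPP3 or MPP4 replicate, at 45.2 CPM. Of all regions tested, 1.64% did not overlap between MPP3 and HSC, 0.75% between MPP4 and HSC, 4.82% between MPP3 and MPP2 and 1.7% between MPP4 and MPP2; among the 1585 tested members the counts were 40, 27, 110 and 55. The log2 fold change was -3.08 ± 0.31 for MPP3 against MPP2 (adjusted p = 1.23e-08), -2.76 ± 0.35 for MPP3 against HSC (3.67e-06), -2.37 ± 0.32 for MPP4 against MPP2 (3.02e-05) and -2.06 ± 0.36 for MPP4 against HSC (0.00176). At the Esf1 end region the MPP3 against MPP2 change was -0.37 ± 0.20 (adjusted p = 0.285). All 4 calls held without each replicate in turn.

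Further members were lower in MPP3 than in MPP2. The region nearest Slc46a3, a lysosomal transporter gene, whose Gm46943 bases are printed above (chr5:147918025-147918558), had 99.2 ± 45.7 CPM for HSC, 102 ± 27.9 CPM for MPP2, 22.2 ± 5.26 CPM for MPP3 and 36.0 ± 18.97 CPM for MPP4 (SD, n = 6, 6, 5 and 6). It fell by 2.15 ± 0.30 on the log2 scale from MPP2 to MPP3 (adjusted p = 4.96e-06). Against HSC the change was -2.11 ± 0.32 in MPP3 (adjusted p = 0.000119) and -1.56 ± 0.33 in MPP4 (0.0117; 0.0654 without IκB– HSC replicate 1, also lost without IκB– MPP4 replicate 3). The Sncaip region had 110 ± 16.5 CPM in MPP2 and 34.2 ± 24.5 in MPP3 (-1.81 ± 0.22, adjusted p = 4.6e-07). The region nearest Nek2, a centrosomal kinase gene (chr1:191855531-191855842), had 63.9 ± 16.6 against 8.38 ± 2.36 CPM in the same pair (-2.93 ± 0.36, adjusted p = 4.99e-07), from 42.4 to 84.8 CPM in MPP2 and 5.41 to 11.7 CPM in MPP3. The region nearest Casp12, an inflammatory-type caspase gene (chr9:5343071-5343504), had 142 ± 27.1 against 36.7 ± 19.6 CPM (-1.98 ± 0.26, adjusted p = 1.84e-06). The Nek2 region was not called between MPP4 and HSC (-0.33 ± 0.41, adjusted p = 0.838), where its replicates overlapped, from 6.16 to 55.6 CPM and from 13.3 to 79.5 CPM.

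Lower in MPP3 than in HSC were also regions nearest Mrps11, a mitochondrial ribosome gene (chr7:78799792-78800162, -2.58 ± 0.41, adjusted p = 0.000165), and B4galnt4, a glycosyltransferase gene (chr7:141046985-141047313, -2.63 ± 0.44, adjusted p = 0.000336). The Nupr1 region (chr7:126621511-126621674, 1572 bp from the gene), which holds the Gm39087 bases printed above, had -2.66 ± 0.50 in that pair (adjusted p = 0.00116) and -2.32 ± 0.47 for MPP3 against MPP2 (0.000792). Nupr1 encodes a small stress-response chromatin protein. Lower in MPP4 than in HSC were regions nearest Ndst3, a heparan sulphate enzyme gene (chr3:123697843-123698167, -2.45 ± 0.44, adjusted p = 0.0027), and Pdzk1ip1 (chr4:115095705-115096658, -0.93 ± 0.19, 0.00765; 0.0543 without IκB– MPP4 replicate 3). Lower in MPP4 than in MPP2 were regions nearest Dppa4, a chromatin gene of pluripotent cells (chr16:48252792-48253237, -1.95 ± 0.30, adjusted p = 0.000147), and Mtpap, the mitochondrial poly(A) polymerase gene (chr18:4439877-4440154, -2.22 ± 0.41, 0.00124).

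The opposite pattern was clearest at the region nearest Tmed3, a cargo receptor gene of the early secretory pathway (chr9:89667369-89667696, 31507 bp downstream). It had 5.56 ± 5.76 CPM for HSC (n = 6), 9.24 ± 6.01 CPM for MPP2 (n = 6), 36.1 ± 13.2 CPM for MPP3 (n = 5) and 74.3 ± 36.3 CPM for MPP4 (n = 6). The lowest MPP3 replicate, at 16.4 CPM, and the lowest MPP4 replicate, at 31.3 CPM, lay above the highest of HSC and MPP2, at 15.6 and 16.0 CPM. The log2 fold change was 3.88 ± 0.54 for MPP4 against HSC (adjusted p = 0.000118), 2.92 ± 0.58 for MPP3 against HSC (0.00197) and 2.74 ± 0.39 for MPP4 against MPP2 (3.87e-05). At the Tmed3 end region MPP4 against MPP2 gave -0.50 ± 0.17 (adjusted p = 0.0844).

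**Figure D5:**
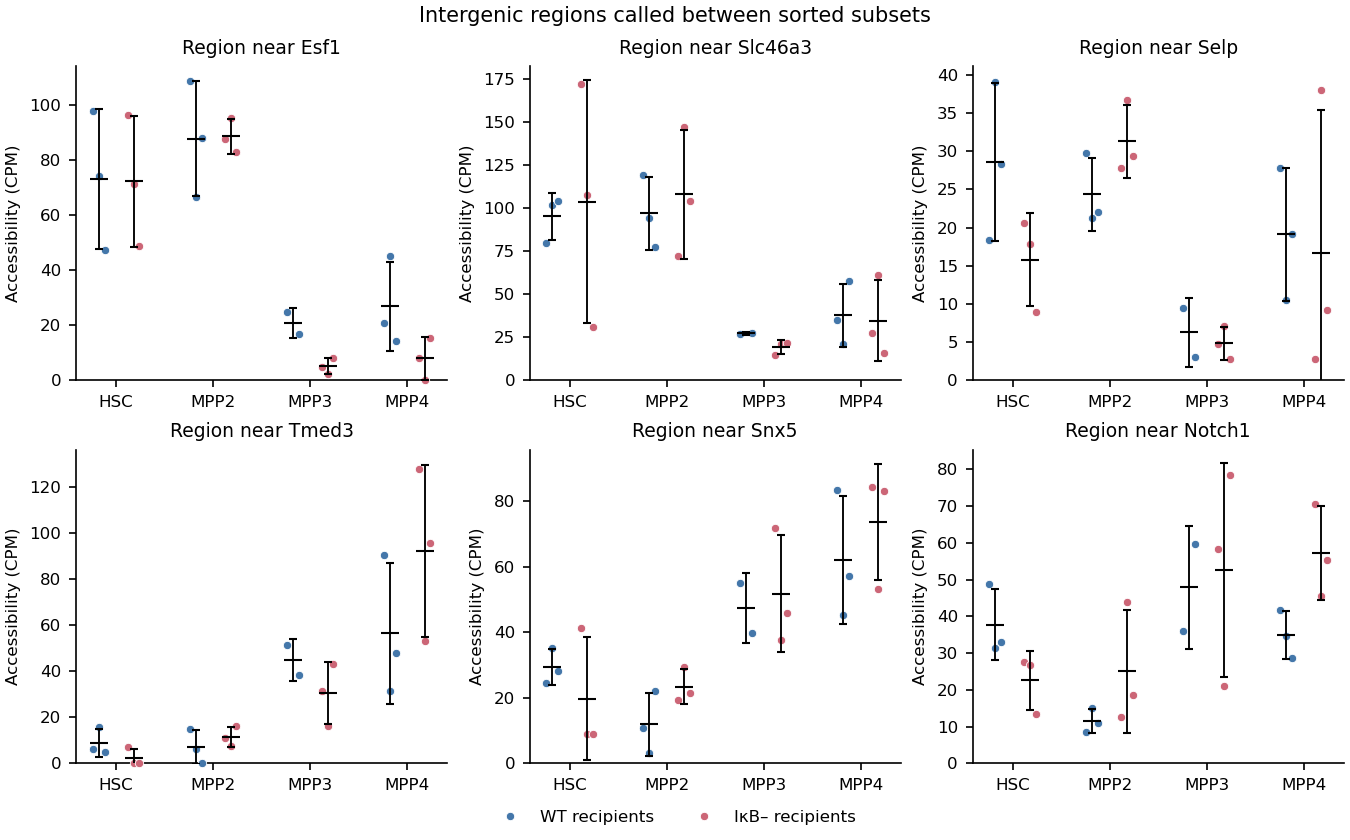
Openness in CPM of 6 members in the 4 subsets, with recipient types marked; points are replicates and bars are mean ± SD. The Esf1, Slc46a3 and Selp regions are lower in MPP3 than in MPP2, and the Tmed3, Snx5 and Notch1 regions have higher means in MPP4 than in MPP2.

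The region nearest Siglech, a surface lectin gene of plasmacytoid dendritic cells (chr7:55784590-55784940), had 10.9 ± 8.14 CPM for HSC, 19.5 ± 13.0 CPM for MPP2, 49.2 ± 16.9 CPM for MPP3 and 66.5 ± 41.2 CPM for MPP4. It rose by 2.24 ± 0.47 in MPP3 against HSC (adjusted p = 0.00324), by 2.66 ± 0.47 in MPP4 against HSC (0.00251) and by 2.01 ± 0.38 in MPP4 against MPP2 (0.00124). The region nearest Snx5, an endosomal sorting nexin gene (chr2:144245481-144245777), had 17.6 ± 9.33 CPM for MPP2, 50.01 ± 13.9 CPM for MPP3 and 67.8 ± 17.8 CPM for MPP4 (1.73 ± 0.33 and 2.15 ± 0.34 against MPP2, adjusted p = 0.00043 and 0.000155). The region nearest Plac8, a small cysteine-rich protein gene of myeloid and lymphoid cells (chr5:100585126-100585546), had 25.4 ± 9.89 CPM in HSC and 76.0 ± 23.3 in MPP4 (1.64 ± 0.31, adjusted p = 0.00299). The end region of Plac8 had 2.28 ± 0.63 in the same pair and did not pass (adjusted p = 0.0546). In the subset pairs, the tested end regions of genes near called members were themselves called at 1 of 30 genes for MPP3 against HSC, which was Plac8, and at 0 of 19 for MPP4 against HSC. For MPP3 against MPP2 it was 8 of 119, among them Acss1, Lancl2 and S1pr1, and for MPP4 against MPP2 0 of 56. Of all gene-end regions tested, 0.581, 0.207, 2.72 and 0.595% were called in these pairs. A region nearest Pfpl, a pore-forming protein-like gene (chr19:12435136-12435487), had 53.6 ± 27.6 CPM in MPP4 and only 3 counts over the 6 HSC replicates, a count ratio of 20.3 with a 95% interval of 6.69 to 100.4 that covers counting error only.

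Further members higher in MPP3 or MPP4 were of mixed address. The region nearest Adgrg3, an adhesion receptor gene of granulocytes (chr8:95046996-95047318), had 15.8 ± 8.73 CPM in HSC and 53.0 ± 8.56 in MPP3 (1.85 ± 0.40, adjusted p = 0.00413), with the highest HSC replicate at 27.4 and the lowest MPP3 replicate at 42.2 CPM. Nearest Cxcr5, the receptor that guides B cells to follicles (chr9:44538026-44538307), MPP2 had 9.12 ± 5.98 and MPP3 36.9 ± 6.84 CPM (1.81 ± 0.38, adjusted p = 0.00127), and nearest Cxxc5, a CpG-binding protein gene (chr18:35887906-35888538), 40.1 ± 19.3 and 94.9 ± 26.4 CPM (1.40 ± 0.26, 0.000352). Regions nearest BC005537 (chr13:24791465-24791665, MPP3 against HSC, 2.73 ± 0.59) and Gm826 (chr2:160353695-160354009, MPP4 against MPP2, 2.83 ± 0.50) had adjusted p of 0.00443 and 0.00075. The Acss1 region, also higher in IκB– recipients, was higher in MPP4 than in HSC at 159.6 ± 86.8 against 37.8 ± 28.8 CPM (1.88 ± 0.34, adjusted p = 0.00275).

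Lists of blood genes found few members, and all counts are of members whose nearest gene is on the list. The stem cell and progenitor transcription factor list (22 genes) had 9 tested members, of which the Gfi1b region was called by recipient. The region 26768 bp downstream of Bcl11a, a factor of lymphoid development (chr11:24200326-24200594), was higher in MPP3 and in MPP4 than in MPP2, at 35.2 ± 11.4 and 51.1 ± 19.9 against 15.9 ± 6.90 CPM (1.29 ± 0.35 and 1.67 ± 0.37, adjusted p = 0.0138 and 0.00558). The first Bcl11a call was lost without WT MPP2 replicate 1 (0.0944) or IκB– MPP3 replicate 1. Of the surface and signalling list, 6 members were tested, and a second Cd34 region, 10516 bp upstream (chr1:194927975-194928305), was higher in MPP3 than in HSC, at 60.6 ± 23.8 against 18.1 ± 13.5 CPM (1.81 ± 0.44, adjusted p = 0.0139; 0.0628 without WT MPP3 replicate 1, also lost without IκB– MPP3 replicate 1). This is a different region from the Cd34 region that was higher in IκB– recipients. A further Cd34 region, 14882 bp downstream (chr1:194976174-194976654), ran from 76.0 to 159.9 CPM over all replicates. It was called neither for the mean recipient effect nor for MPP3 against HSC.

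Of 3 tested members on the lymphoid list, the region 9467 bp upstream of Notch1, the receptor that directs T cell commitment (chr2:26513289-26513675), had 18.3 ± 13.1 CPM for MPP2, 50.7 ± 22.4 CPM for MPP3 and 46.2 ± 15.1 CPM for MPP4 (1.75 ± 0.34 and 1.59 ± 0.37, adjusted p = 0.000557 and 0.00925). The second Notch1 call was lost without IκB– MPP2 replicate 1 (0.0562). The other lymphoid members, near Ikzf1 and Id2, were not called and had values of the opposite sign for MPP3 against MPP2, at -0.37 ± 0.26 and -0.11 ± 0.31 (adjusted p = 0.441 and 0.881), so the median of the list was -0.11. Of 3 tested members on the erythroid and megakaryocyte list, 2 were lower in MPP3 than in MPP2, a call that 181 of the 1585 tested members and 6.27% of all regions tested had in that pair. The region nearest Selp, which encodes P-selectin of platelets (chr1:164109929-164110129), had 21.2 to 36.7 CPM in MPP2 and 2.70 to 9.48 CPM in MPP3 (-2.26 ± 0.48, adjusted p = 0.00163), and that nearest Car2, the carbonic anhydrase of red cells (chr3:14944714-14944987), 27.5 to 45.9 and 2.70 to 15.2 CPM (-1.90 ± 0.41, adjusted p = 0.00179). The MPP2 and MPP3 replicates did not overlap at either region, as at 110 tested members and 4.82% of all regions tested. The myeloid list (6 tested) and the mature granulocyte and macrophage list (2 tested) had 0 called members in any comparison, and the 1 member near a stroma or endothelium gene was not called. Between 0 and 8.14% of all regions tested were called per comparison, so 0 of so few members is near the background and is no result about these lists.

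The NF-κB pathway and target list had 5 tested members near 3 genes and 0 called in any comparison, which is likewise near the background (1.73% of all regions for the mean recipient effect). Their median mean recipient effect was 0.05, on the log2 scale. The glucocorticoid response list had 2, both near Klf9 and described above. Of the 14 tested members near immediate early genes, the Btg2 region 1398 bp downstream was lower in MPP3 than in HSC (-1.42 ± 0.34, adjusted p = 0.013; 0.0675 without IκB– HSC replicate 1, also lost without WT MPP3 replicates 2 and 3) and than in MPP2 (-1.33 ± 0.31, 0.00325). Another Btg2 region, 7390 bp downstream (chr1:134067246-134067475), went the other way, at 49.6 ± 16.9 CPM in MPP4 and 18.9 ± 7.41 in MPP2 (1.46 ± 0.36, adjusted p = 0.0128; 0.0888 without IκB– MPP4 replicate 1, also lost without WT MPP2 replicate 1). A region nearest Fosb, an AP-1 subunit gene (chr7:19319973-19320233), was higher in MPP3 than in MPP2 (0.91 ± 0.27, adjusted p = 0.029; called in 18 of 23 fits, 0.14 without WT MPP3 replicate 1). Of 3 members near interferon genes, a region near Irf1, a transcription factor induced by interferon (chr11:53794939-53795512), was higher in MPP3 than in MPP2, at 102 ± 34.2 against 45.3 ± 10.2 CPM (1.05 ± 0.23, adjusted p = 0.00211).

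Of the mature T and NK cell list, 2 members were tested. The region 1253 bp downstream of Prf1, which encodes perforin of cytotoxic cells (chr10:61305937-61306277), had 64.2 ± 14.6 CPM for HSC, 64.1 ± 20.7 CPM for MPP2, 18.1 ± 16.1 CPM for MPP3 and 28.9 ± 14.3 CPM for MPP4. It was lower in MPP3 than in HSC (-2.09 ± 0.35, adjusted p = 0.000341) and than in MPP2 (-2.02 ± 0.33, 5.05e-05). For MPP4 it was -1.31 ± 0.35 against HSC (0.0448, called in 9 of 23 fits, 0.16 without WT HSC replicate 2) and -1.24 ± 0.33 against MPP2 (0.0227, called in 17 of 23 fits, 0.0954 without IκB– MPP4 replicate 3). Of the 10 genes on that list 2 have a member, so the part of other cell types in the result was not tested.

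In the pairs without calls, the members with the smallest p were a region near Brd7, a bromodomain gene (chr8:88380561-88380839), at 58.8 ± 14.9 CPM in MPP2 and 19.1 ± 13.0 in HSC (1.60 ± 0.35, adjusted p = 0.0975), and a region near Cenpe, a kinetochore motor gene (chr3:135191902-135192230), at 57.6 ± 26.6 CPM in MPP4 and 16.2 ± 9.53 in MPP3 (1.78 ± 0.41, adjusted p = 0.898). Downward in MPP4 against MPP3 it was near Gata2, a stem cell transcription factor gene (chr6:88189625-88189910; -1.46 ± 0.51, adjusted p = 0.999).

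Members also covered small RNA genes, 4 of them miRNA genes. The sequences of 2 are shown because 1 lies in a called member and the other in the most open of the 4. Each is the mature miRNA from RefSeq GRCm38.p6, 5′ to 3′, with its seed (bases 2 to 8) in capitals.
mmu-miR-713: uGCACUGAaggcacacagc
mmu-let-7i-5p: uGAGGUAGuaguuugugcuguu
The seeds differ. The member with miR-713 (chr13:62760469-62760897, nearest Gm5141) was lower in MPP3 than in MPP2 (-1.02 ± 0.26, adjusted p = 0.00808). The member with let-7i (chr10:122985340-122986562, nearest Mon2) had 125 CPM and was not called in that pair (-0.07 ± 0.19, adjusted p = 0.869). Openness of the DNA says nothing here of the amount of the miRNA, which was not measured.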

How the data were processed

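ATAC-seq was run on donor HSC, MPP2, MPP3 and MPP4 from WT and IκB– recipients, 24 libraries in 8 groups by GEO's labels. A single deposited table holds whole-number counts for each region; the authors' notes to the submission name Bowtie2, SAMtools, Picard, MACS2 2.1.0, deepTools and the build mm10 without their roles, per the submitters' processing notes, and filters, peak pooling and read shifting are not given in the sources used here. Regions were placed against the RefSeq GRCm38.p6 gene table by their distance to protein-coding gene ends. Members, lists and tests were chosen with earlier results of these data known.

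All 13910 regions were fitted together in R 4.3.3 with edgeR 4.0.16 (TMM scaling, filterByExpr, robust quasi-likelihood F test, 15 residual degrees of freedom), which tested 13325 regions. P-values were adjusted by Benjamini-Hochberg over all regions tested, and called means an adjusted p under 0.05. WT MPP3 replicates 2 and 3 were summed to 1 replicate, since a chi-square test of their counts found no difference (chi-square per degree of freedom 1.00, p = 0.348); the other pairs gave 1.31 to 4.12. CPM are counts per 1e+06 of the TMM-scaled library total, and fold changes and SE are on the log2 scale. Shares of counts used exact permutation tests. The steps were tested on simulated data. Alternatives were DESeq2 1.42.0, limma-voom (limma 3.58.1), other scaling, filters, a replicate block, a gene-end share covariate and leaving out replicates. Intervals cover counting error only.

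Named members were those with the smallest p among called members in each direction (12 for the mean recipient effect, 6 within a subset, 5 for a subset pair, 3 for the interaction), the 1 with the smallest p where none was called, and called members near list genes. Replicate numbers were not taken as pairs in the main fit, because not every same-numbered pair deviated together. Many did: between subsets of a recipient type, 27 of 36 same-numbered pairs correlated over 0.1, against 1 of 72 with other numbers. Between recipients of a subset it was 7 of 12 against 1 of 24. A fit with a block for the replicate number and all 24 libraries kept apart called more members, as given below. Among the members this rule names, 2 are not reported here.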

Additional observations from a re-analysis of the deposited data

Results flagged for a closer look

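At 4 members the samples of 2 groups moved in opposite directions under the same comparison, and none of these differences was tested pair by pair; the joint test over subsets called none of them. The region near Metap1 (chr3:138495400-138495601) had a fitted recipient effect of 1.74 in HSC and -5.05 in MPP3 on the log2 scale. All 3 IκB– MPP3 replicates had 0 counts there, so the fitted value depends on the prior count and is no bound. The WT MPP3 replicates had 11.4 and 12.2 CPM. The Notch1 region had a recipient effect of 0.78 in MPP4 and -0.80 in HSC. The Cenpe region had 1.01 in MPP4 and -1.31 in MPP3. The BC005537 region had an MPP4 minus MPP3 difference of -0.73 in WT and 0.73 in IκB– recipients. Groups of 3 samples were not searched for outlying values.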

How the results depend on the processing

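Among named members, 936 of 982 values under the alternatives and 2024 of 2198 without 1 replicate kept direction and side of the threshold, 38 and 172 lost the call, 8 and 2 gained it and 0 reversed. Counts of called members moved as follows. Testing only regions with a mean of at least 20 counts kept 266 members and gave 1 for the recipient effect in MPP3, 0 in MPP4, 2 for the mean recipient effect, 5 for MPP3 against HSC, 4 for MPP4 against HSC, 15 for MPP3 against MPP2 and 5 for MPP4 against MPP2. Of the called members still tested, 1 of 1, 2 of 6, 5 of 6, 4 of 5, 15 of 31 and 5 of 10 kept the call in these comparisons other than MPP4, so calls were lost both with the members not tested and among those tested. With all 24 libraries kept apart and the replicate block, which changes both choices together, these were 80, 2, 101 (40 higher, 61 lower), 157, 95, 390 and 216, with 5 for MPP2 against HSC and 1 for MPP4 against MPP3. Among shares of counts, the block was run only for the mean recipient difference and for each progenitor subset minus HSC. It changed no call among these. Same-numbered replicates correlated from -0.0509 to 0.371 between recipients (7 of 12 over 0.1) and 0.0283 to 0.337 between subsets (27 of 36), and 71 of 84 comparisons were highest with their own number, a hint from the data only. The gene-end share as a covariate gave 8 for MPP3, 85 (30 higher, 55 lower) for the mean effect, 5 for MPP2 against HSC, 75 for MPP4 against HSC and 226 for MPP4 against MPP2. Limma-voom gave 41 for MPP3 and 16 for MPP4 against HSC, all 24 libraries apart with no block gave 20 for MPP3 and 59 for the mean effect, and fitting only the groups compared gave 0 for MPP3. The 1 MPP4 call was 0 with DESeq2's size factors, total counts, loess, DESeq2, limma-voom and only the groups compared. Total counts gave 3 for MPP2 against HSC. Without both libraries that stood apart, the counts were 40 for MPP3, 2 for MPP4 and 161 for MPP3 against HSC. The causes of these changes were not tested, beyond the fall in the number tested. Without 1 replicate the counts ran from 0 to 31 for MPP3, 0 to 1 for MPP4, 18 to 98 for the mean effect, 0 to 3 for MPP2 against HSC, 45 to 148 for MPP3 against HSC, 18 to 61 for MPP4 against HSC, 149 to 338 for MPP3 against MPP2 and 54 to 187 for MPP4 against MPP2, and stayed 0 in HSC, MPP2, the interaction and MPP4 against MPP3.

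The differences in the members' share of counts changed sign under some alternative, except the recipient difference within MPP3 (-0.748 points), which was negative under all of those run. MPP3 minus HSC was 0.392 points with all regions as denominator, 0.800 with counts over 1 kb from a gene end and 0.0314 with a 25 kb limit. The recipient difference was 0.0625 and 0.0197 under the last 2 and 0.295 without both libraries that stood apart, where MPP2 and MPP4 minus HSC were -0.139 and -0.294. Within HSC it was -0.114 and -0.0134 with the 2 denominators, and within MPP2 -0.165 with the second. Without 1 replicate the shares ran from -0.188 to 0.139 for recipients, -0.139 to 0.461 for MPP2, -0.366 to 0.235 for MPP3 and 0.0184 to 0.674 for MPP4 minus HSC, and for recipients within subsets -0.447 to 0.753 in HSC, 0.122 to 0.364 in MPP2, -0.905 to -0.519 in MPP3 and -0.306 to 0.926 in MPP4. A search of the regions' own bases for motifs was not run; promoter windows were used. Depth limits all of these results, since the median member had 4 to 30 counts per library.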

Other observations

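Among the 55 members called by recipient, some had nearest genes outside the named set; those below were chosen after their values were seen. A pair lay in the olfactory receptor cluster that flanks the beta-globin genes on chromosome 7. The region nearest Olfr66 (chr7:103870682-103870993) had -1.26 ± 0.29 on the log2 scale (adjusted p = 0.0181), and that nearest Olfr65 (chr7:103910121-103910472) had -1.06 ± 0.28 (adjusted p = 0.0397), both lower in IκB– recipients. They kept their calls in 21 and 7 of the 23 fits without 1 replicate. The region nearest Zfp36l1, an mRNA decay factor gene (chr12:80083989-80084207), was lower by -1.28 ± 0.30 (adjusted p = 0.0185), and that nearest Slc2a1, a glucose transporter gene (chr4:119077079-119077484), by -0.96 ± 0.24 (adjusted p = 0.0268). The region nearest Kdm5a, a histone demethylase gene (chr6:120453188-120453465), was higher, 1.57 ± 0.43 (adjusted p = 0.0454), and called in 5 of 23 fits. The region nearest Pde4b, a cyclic AMP phosphodiesterase gene (chr4:102625009-102625293), was higher at 0.81 ± 0.22 (adjusted p = 0.0409) and called in 9 of 23 fits.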
